A study of Mus musculus with 9 samples.

Results

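The 10 genes described here encode receptors, carriers and an enzyme through which cells sense, move and break down nucleotides and nucleosides. They were taken by symbol from the deposited expression table: the ATP-gated channels P2rx4 and P2rx7, the P2Y receptors P2ry2, P2ry6 and P2ry14, the adenosine receptors Adora2a and Adora2b, the equilibrative nucleoside carriers Slc29a1 and Slc29a3, and the ectonucleotidase Entpd1. All 10 were among the 56691 genes of the table, and 8 of them were among the 11995 genes tested, which had at least 1 FPKM in at least 3 libraries. P2ry14 and Adora2a were below that limit and are given by their counts. Entpd1 passed it through the control libraries alone.

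RNA was measured in RAW264.7 cells, a mouse macrophage line that forms osteoclasts, the cells that resorb bone, when given the cytokine RANKL. The 9 libraries fall into 3 groups of 3, all collected on day 3: untreated control cells, cells given RANKL, and cells given RANKL together with uridine (UD), the pyrimidine nucleoside. The comparison of RANKL + UD with RANKL addresses how UD alters RANKL-driven differentiation, and RANKL against control gives the change on which UD is laid. No group received UD without RANKL, so an effect of UD in unstimulated cells was not measured here. The labels give no dose of RANKL or UD and no batch, and they call the libraries of a group replicate biosamples without saying whether they came from separate cultures, so the p-values measure the spread between these libraries, which may be technical.

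Total counts ranged from 15951800 to 19746862 per library. The macrophage markers fixed for this work summed to 9966 to 10552 FPKM in control, 2632 to 2869 in RANKL and 2341 to 2475 in RANKL + UD, and all 8 of them were detected. The sum was carried by Lyz2, with 7818 to 8299 FPKM in control, and not all markers followed it: with RANKL 7 fell and Cd68 rose, and from RANKL to RANKL + UD 5 fell while Adgre1 and Cybb rose (edgeR, adjusted p under 0.05). The osteoclast markers summed to 46.9 to 50.1, 2641 to 2844 and 1666 to 1703 FPKM in the same order, and 8 of 9 passed the expression limit. Marker lists of T cells, B cells, fibroblasts and osteoblasts, endothelial cells and epithelial cells held no gene that passed it, and the highest summed level of any of these lists in any library was 0.45 FPKM. The part of the osteoclast and macrophage markers' changes in the results that follow was not tested. In bulk RNA, fewer cells of one state and less RNA of a gene per cell cannot be told apart.

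Cells release ATP, UTP and UDP-sugars when stressed or stimulated. P2X receptors are cation channels opened by ATP, and P2Y receptors are G-protein-coupled receptors that read ATP, UTP, UDP or UDP-glucose. CD39, the product of Entpd1, removes phosphates from extracellular ATP and ADP, and CD73, the product of Nt5e, turns the resulting AMP into adenosine, which acts on the adenosine receptors. Equilibrative carriers then move adenosine, uridine and other nucleosides across membranes along their gradient. In macrophages P2X7 is best known as the ATP-driven trigger of the NLRP3 inflammasome, and P2X7 and adenosine receptors have been studied in the fusion of osteoclast precursors. UD is itself a substrate of these carriers, whereas the P2Y receptors read uridine nucleotides and not the nucleoside.

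FPKM, the count scaled to the exonic length of the gene and to the total of the library, allows levels of different genes to be set side by side. In control cells P2ry6 stood first with 28.9 ± 4.99 FPKM (SD, n = 3), followed by Slc29a1 with 13.4 ± 0.658, P2rx7 with 8.22 ± 0.305, Entpd1 with 5.46 ± 0.338, Slc29a3 with 4.69 ± 0.337 and P2rx4 with 3.68 ± 0.0265. The library ranges of neighbours in this order did not overlap down to P2rx4. Adora2b with 2.04 ± 0.247 and P2ry2 with 1.69 ± 0.280 came next and overlapped each other, and Adora2a and P2ry14 stayed under 0.1 FPKM. In RANKL cells Slc29a1 stood first with 7.80 ± 0.686 FPKM, and P2ry6 with 6.25 ± 0.254, P2rx7 with 5.58 ± 0.347 and Slc29a3 with 5.32 ± 0.485 formed a run in which each overlapped the next. P2ry2, Adora2b and Entpd1 formed a lower run of the same kind, at 1.70 ± 0.321, 1.22 ± 0.512 and 1.00 ± 0.0624 FPKM. In RANKL + UD cells Slc29a1 and P2ry6 overlapped at the top, and Entpd1 with 0.357 ± 0.0929 FPKM was below P2ry2 with 1.03 ± 0.181, with no overlap.

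**Figure D1:**
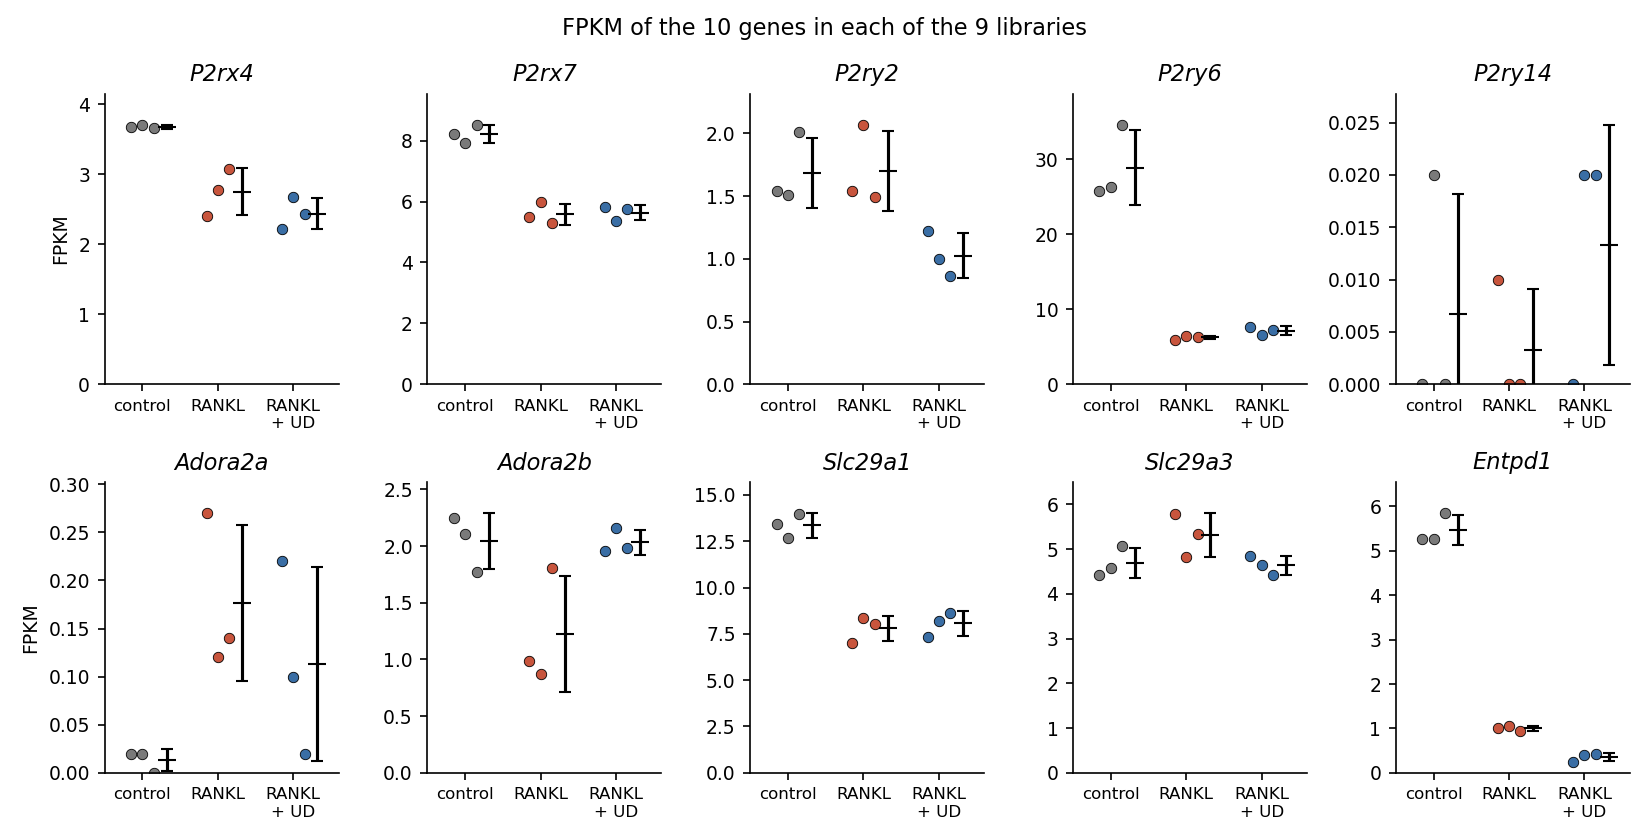
FPKM of each of the 10 genes in the 9 libraries, 1 panel per gene with its own linear axis from 0; points are libraries, horizontal lines are group means and bars are the SD over 3 libraries (cut at 0 where they would pass below it). P2ry6 and Entpd1 show the widest gap between control and both RANKL groups, and P2ry2 and Entpd1 lie lower in every RANKL + UD library than in any RANKL library.

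RefSeq promoter entries on GRCm38.p6 were found for 8 of the 10 genes, with 21 start sites in all; P2ry6 and Adora2a had none. For 4 genes with different courses over the groups, the 250 bases before a start are printed 5′ to 3′ on the strand of the gene: Entpd1, which fell in both steps, P2rx4, which fell with RANKL, P2ry2, which fell from RANKL to RANKL + UD, and Adora2b, which fell with RANKL and had control-like levels in RANKL + UD. Capitals mark matches on either strand to TGANTCA (AP-1), GGAAA (the NFAT core), GAGGAA (PU.1), CACGTG (an E-box read by MiT/TFE factors and MYC) and TGACG (the core of a CRE), so a match to the other strand appears as its reverse complement. The Entpd1 window is the second of its 2 starts, at chr19:40659520-40659769, plus strand. The P2rx4 window is chr5:122707294-122707543, plus strand, the P2ry2 window is chr7:101012054-101012303, minus strand, and the Adora2b window is chr11:62248734-62248983, plus strand.
Entpd1: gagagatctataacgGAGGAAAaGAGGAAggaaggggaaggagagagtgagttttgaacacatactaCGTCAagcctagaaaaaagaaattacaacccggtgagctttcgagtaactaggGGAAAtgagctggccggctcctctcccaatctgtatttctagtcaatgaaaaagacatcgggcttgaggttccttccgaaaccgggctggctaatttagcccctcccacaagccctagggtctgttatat
P2rx4: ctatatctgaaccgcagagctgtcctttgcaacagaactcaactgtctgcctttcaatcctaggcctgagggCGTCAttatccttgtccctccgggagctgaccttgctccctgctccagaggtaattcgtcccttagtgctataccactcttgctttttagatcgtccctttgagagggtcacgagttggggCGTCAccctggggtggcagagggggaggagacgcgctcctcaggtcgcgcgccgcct
P2ry2: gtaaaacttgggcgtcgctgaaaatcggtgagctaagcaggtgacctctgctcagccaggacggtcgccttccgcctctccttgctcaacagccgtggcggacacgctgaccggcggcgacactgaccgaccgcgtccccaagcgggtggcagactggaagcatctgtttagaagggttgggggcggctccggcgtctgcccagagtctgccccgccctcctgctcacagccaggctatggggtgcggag
Adora2b: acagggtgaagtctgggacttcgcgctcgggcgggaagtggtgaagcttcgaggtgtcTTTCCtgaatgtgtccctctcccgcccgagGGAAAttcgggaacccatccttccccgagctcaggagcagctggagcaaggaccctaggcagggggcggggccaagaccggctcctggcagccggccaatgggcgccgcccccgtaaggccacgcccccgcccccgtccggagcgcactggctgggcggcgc

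The Entpd1 window held GAGGAA at 235 and 227 bases before the start, GGAAA at 233 and 130, and the CRE core at 183. The GGAAA at 233 overlaps the GAGGAA at 235, so they are not separate matches. The window of the other Entpd1 start (chr19:40612116-40612365, plus strand) holds the CRE core at 135 bases before that start and no other motif. Over 32851 RefSeq windows of this length, GAGGAA was found in 23.3%, GGAAA in 55.6% and TGACG in 17.8%, against 6.75% for TGANTCA and 6.02% for CACGTG. The P2rx4 window held the CRE core at 178 and 57 bases before the start and no other motif, and the Adora2b window held GGAAA at 192 and 162. None of the 5 motifs was found in the printed P2ry2 window. P2ry2 has another start, whose window (chr7:101011999-101012248, minus strand) largely overlaps the printed one and holds CACGTG at 18 bases before that start. The bases G and C made up 47.2% of the Entpd1 window, 57.2% of the P2rx4 window, 65.2% of the P2ry2 window and 69.6% of the Adora2b window. These matches describe the letters of the reference; binding and the start site in use were not measured.

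With RANKL, 7 of the 8 tested genes changed at an adjusted p under 0.05 (edgeR's quasi-likelihood test, Benjamini-Hochberg adjustment over 11995 genes): P2rx4, P2rx7, P2ry6, Adora2b, Slc29a1 and Entpd1 fell and Slc29a3 rose. Over all tested genes this comparison called 57.6%, with 27.3% higher and 30.2% lower, so most tested genes were also called. Between RANKL + UD and RANKL 3 of the 8 changed, all of them lower: P2ry2, Slc29a3 and Entpd1. The share of all tested genes called there was 38.8%, with 20.2% lower, so 3 of 8 is close to that share. Between RANKL + UD and control 6 of the 8 were lower and none higher, beside 54.0% of all genes called and 27.3% lower. With an unadjusted p under 0.05 and a fold over 1.5, the counts were 4 of 8 for RANKL against control, all lower, beside 25.5% of all genes (14.4% lower). They were 3 of 8 for RANKL + UD against RANKL, with P2ry2 and Entpd1 lower and Adora2b higher, beside 10.8% of all genes (4.82% higher and 5.99% lower). They were 5 of 8, all lower, for RANKL + UD against control, beside 22.7% (9.59% higher and 13.1% lower). Counting genes whose libraries did not overlap in FPKM gave 5 of 8 for RANKL against control, all lower, beside 61.7% of all genes. Of all genes, 22.9% were higher and 38.8% lower by this measure. The same count gave 4 of 8 for RANKL + UD against RANKL, with P2ry6 and Adora2b higher and P2ry2 and Entpd1 lower, beside 51.7% (34.1% higher and 17.6% lower). For RANKL + UD against control it gave 6 of 8, all lower, beside 59.9% (29.5% higher and 30.4% lower). Entpd1 is among the lower genes in every count against control. It passed the expression limit through the control libraries alone, so that limit bears on those counts. Whether the 8 genes differ from the rest of the table in these counts was not tested. The comparisons share libraries, so their values are set side by side and not as independent results.

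Scaling bears on the direction of weak changes. TMM scaling, which assumes that most genes hold their level, gave the RANKL group factors of 0.959 to 0.963, whereas the other 6 libraries had 1.01 to 1.03. Without it, the median log2 fold change over all tested genes moved from -0.03 to -0.12 for RANKL against control and from 0.01 to 0.09 for RANKL + UD against RANKL. The share of higher genes among those called moved from 47.5% to 36.9% in the first comparison and from 48.0% to 66.2% in the second. No tested gene of the 8 changed the direction of a called difference under any scaling tried.

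**Figure D2:**
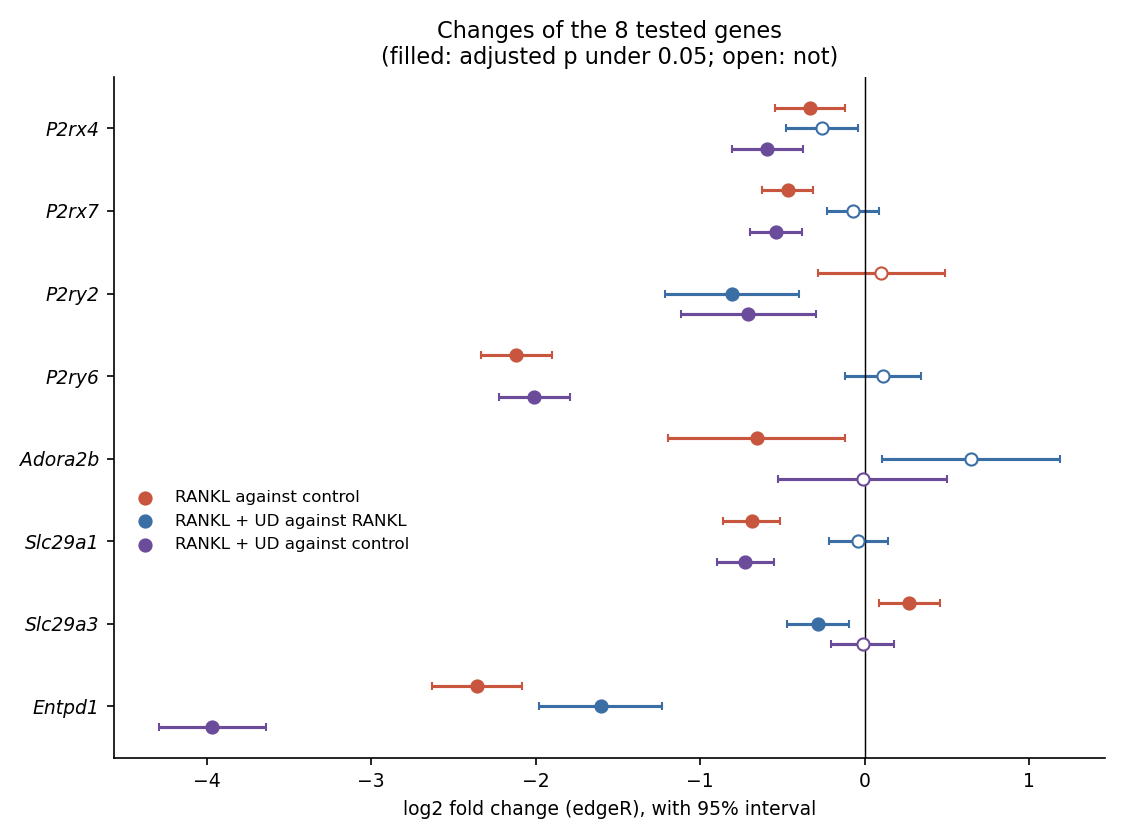
Fitted log2 fold change of the 8 tested genes in the 3 comparisons, with 95% intervals as bars; filled points have an adjusted p under 0.05 (edgeR's quasi-likelihood test) and open points do not. P2ry6 and Entpd1 lie near or below -2 against control in both RANKL groups, while P2ry2 lies at 0.10 for RANKL against control and at -0.81 for RANKL + UD against RANKL.

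Both P2X channel genes were lower in every RANKL and every RANKL + UD library than in any control library. P2rx7 (ENSMUSG00000029468) is listed at chromosome 5, 122781974 to 122829495, plus strand, and P2rx4 (ENSMUSG00000029470) follows it on the same strand at 122845607 to 122867801. The table's coordinates carry no build, and those of the 10 genes differ from the GRCm38 annotation, so the positions of genes here are the table's own and those of the promoter windows are on GRCm38.p6. P2rx7 stood at 8.23, 7.91 and 8.52 FPKM in control, 5.48, 5.97 and 5.30 in RANKL, and 5.82, 5.35 and 5.75 in RANKL + UD. The 2 RANKL groups overlapped each other and stayed below control. Its fitted log2 change was -0.47 (SE 0.075, adjusted p = 1.69e-05, edgeR) for RANKL against control, and -0.07 for RANKL + UD against RANKL, with a 95% interval from -0.23 to 0.09 and an adjusted p of 0.508. P2rx4, a channel that sits largely on lysosomes in macrophages, stood at 3.67, 3.71 and 3.66 FPKM in control, 2.40, 2.78 and 3.07 in RANKL, and 2.22, 2.67 and 2.43 in RANKL + UD. The control libraries were tightly grouped, and those of the RANKL groups spread over a wider range and overlapped each other. The fall with RANKL was -0.33 on the log2 scale (SE 0.101, adjusted p = 0.0079), and without RANKL replicate 1 its adjusted p was 0.0571. RANKL + UD against RANKL gave -0.26 (95% interval -0.48 to -0.04), which did not pass the adjusted threshold (adjusted p = 0.0547), but did without RANKL replicate 1 (adjusted p = 0.0163), RANKL + UD replicate 2 (0.0404) or control replicate 3 (0.0489). Against control the RANKL + UD libraries were 1.51-fold lower (adjusted p = 5.12e-05).

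P2ry6, the receptor for UDP, was the gene with the highest FPKM of the 10 in control and had the largest absolute fall. It is listed at chromosome 7, 100586837 to 100623856, minus strand (ENSMUSG00000048779), close to P2ry2 on the same strand. Its levels were 25.7, 26.3 and 34.6 FPKM in control, 5.96, 6.43 and 6.36 in RANKL, and 7.66, 6.52 and 7.26 in RANKL + UD. All 6 RANKL-treated libraries lay far below control, and every RANKL + UD library lay above every RANKL library in FPKM. RANKL against control gave a 4.34-fold lower level, -2.12 on the log2 scale (SE 0.104, adjusted p = 1.93e-13, edgeR). RANKL + UD against RANKL gave 0.11 after TMM scaling (95% interval -0.12 to 0.34, adjusted p = 0.471), so the separation in FPKM was not a difference by the test. The gene Gm44545 lies across P2ry6 on the other strand with at most 25 counts in a library. Whether the counting used strand is not stated.

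P2ry2, which reads ATP and UTP alike, followed a different course. The table lists it at chromosome 7, 100645775 to 100662073, minus strand (ENSMUSG00000032860). The FPKM values were 1.54, 1.51 and 2.01 in control, 1.54, 2.07 and 1.49 in RANKL, and 1.22, 1.00 and 0.86 in RANKL + UD. Control and RANKL libraries overlapped, and every RANKL + UD library was below all 6 others. The fitted change was 0.10 for RANKL against control (95% interval -0.29 to 0.49, adjusted p = 0.666, edgeR). For RANKL + UD against RANKL it was -0.81 (SE 0.195, adjusted p = 0.0024), a 1.75-fold lower level, and for RANKL + UD against control -0.71 (adjusted p = 0.00464). P2ry14, the receptor for UDP-glucose (ENSMUSG00000036381, chromosome 3, 59021276 to 59061039, minus strand), was at the limit of detection. It had 0, 5 and 0 counts in control, 2, 1 and 0 in RANKL, and 1, 4 and 4 in RANKL + UD. The summed counts were 5, 3 and 9, and no difference was detectable at this depth.

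Of Adora2a and Adora2b, whose products bind adenosine and raise cyclic AMP in the cell, only Adora2b passed the expression limit. It is listed at chromosome 11, 62139810 to 62157279, plus strand (ENSMUSG00000018500). Control libraries held 2.25, 2.11 and 1.77 FPKM, RANKL libraries 0.99, 0.87 and 1.81, and RANKL + UD libraries 1.96, 2.16 and 1.98. RANKL replicate 3 lay within the control range, whereas the other 2 RANKL libraries lay below every library of both other groups. The counts were 36, 31 and 64 in RANKL, an SD of 17.8 where counting alone would give 6.61. RANKL against control gave -0.66 on the log2 scale (SE 0.258, adjusted p = 0.035, edgeR). This call was lost without RANKL replicate 1 (adjusted p = 0.126), RANKL replicate 2 (0.164), control replicate 1 (0.101) or control replicate 2 (0.0842). RANKL + UD against RANKL gave 0.65 (95% interval 0.11 to 1.18, adjusted p = 0.0541), higher in 3 of 3 libraries and short of the threshold. Without RANKL replicate 3 it was 1.04 with an adjusted p of 0.0043, and without control replicate 3 the adjusted p was 0.0459. RANKL + UD and control differed by -0.01 (95% interval -0.53 to 0.50, adjusted p = 0.971).

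Adora2a (ENSMUSG00000020178, chromosome 10, 75152711 to 75170618, plus strand) was sparse, and its counts moved with RANKL. It had 1, 1 and 0 counts in control, 16, 7 and 8 in RANKL, and 13, 5 and 1 in RANKL + UD. All RANKL libraries were above all control libraries, and RANKL + UD spread over both. Summed over libraries, 31 counts in RANKL against 2 in control give a rate ratio of 13.99 with an exact 95% interval from 3.56 to 121, which covers counting error only. The control group was at the floor used here, at most 3 counts in every library, so the size of this ratio is not well determined. The edgeR fit without the expression limit gave an adjusted p of 0.00188 for this difference and 0.0219 for RANKL + UD against control. For RANKL + UD against RANKL the rate ratio was 0.67 (95% interval 0.358 to 1.22), with an adjusted p of 0.619. Its mean level did not exceed 0.177 FPKM in any group.

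Slc29a1 and Slc29a3, the equilibrative carriers among the 10 genes, followed different courses. Slc29a2, a tested carrier of the same family outside the 10, was not called in any comparison. Its adjusted p was 0.601 for RANKL against control, 0.819 for RANKL + UD against RANKL and 0.42 for RANKL + UD against control (edgeR). Slc29a2 was named here after its values were seen. Slc29a1 (ENSMUSG00000023942, chromosome 17, 45896126 to 45910532, minus strand) encodes ENT1, the carrier of the plasma membrane that takes up uridine and adenosine. It stood at 13.4, 12.7 and 13.98 FPKM in control, 7.03, 8.34 and 8.04 in RANKL, and 7.34, 8.21 and 8.65 in RANKL + UD. Every RANKL-treated library was below every control library, and the RANKL and RANKL + UD libraries were intermingled. RANKL against control gave -0.69 (SE 0.083, adjusted p = 3.66e-07, edgeR), a 1.61-fold lower level. With UD the further difference was -0.04, with a 95% interval from -0.22 to 0.14 and an adjusted p of 0.762. Slc29a3 (ENSMUSG00000020100, chromosome 10, 60547851 to 60588573, minus strand) encodes ENT3, a carrier of lysosomal membranes. Its levels were 4.43, 4.57 and 5.07 FPKM in control, 5.79, 4.82 and 5.34 in RANKL, and 4.85, 4.64 and 4.42 in RANKL + UD. The libraries of RANKL overlapped those of both other groups. The test called a rise with RANKL of 0.27 (SE 0.09, adjusted p = 0.0139) and a fall from RANKL to RANKL + UD of -0.28 (SE 0.09, adjusted p = 0.0157). The rise was lost without RANKL replicate 1 (adjusted p = 0.0856), control replicate 1 (0.0549) or control replicate 2 (0.0517), and with total counts as the only scaling (0.0865). The fall was lost without RANKL replicate 1 (0.0933) or RANKL + UD replicate 3 (0.0691), and with total counts (0.0826). The ratio of Slc29a1 to Slc29a3 in FPKM was 2.76 to 3.03 in control libraries, 1.21 to 1.73 in RANKL and 1.51 to 1.96 in RANKL + UD.

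Entpd1 fell at each step. It is listed at chromosome 19, 40600810 to 40730046, plus strand (ENSMUSG00000048120), with 4 small genes across it that had at most 16 counts in a library. Control libraries held 5.26, 5.27 and 5.85 FPKM, RANKL libraries 1.02, 1.05 and 0.93, and RANKL + UD libraries 0.25, 0.40 and 0.42. The 3 groups did not overlap. RANKL against control gave a 5.13-fold lower level, -2.36 on the log2 scale (SE 0.132, adjusted p = 1.75e-12, edgeR). RANKL + UD against RANKL gave a 3.04-fold lower level, -1.61 (SE 0.179, adjusted p = 4.38e-07), and RANKL + UD against control 15.6-fold. The RANKL + UD value rests on 27 to 40 counts a library. Since Entpd1 entered the test through its control level, its fall against control was in part set by the expression limit. The step from RANKL to RANKL + UD does not involve that group.

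The total of the 10 genes was 64.1 to 75.5 FPKM in control libraries, 30.5 to 32.5 in RANKL and 31.1 to 31.8 in RANKL + UD. The RANKL groups overlapped, and both lay below control. P2ry6 made up 39.9% to 45.9% of the total in control libraries, 19.6% to 19.8% in RANKL and 21.0% to 24.3% in RANKL + UD. As a share of the group means, Entpd1 went from 8.03% in control to 3.14% in RANKL and 1.13% in RANKL + UD, and Slc29a1 from 19.6% to 24.5% and 25.6%, although its own level was lower. These shares carry no test.

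**Figure D3:**
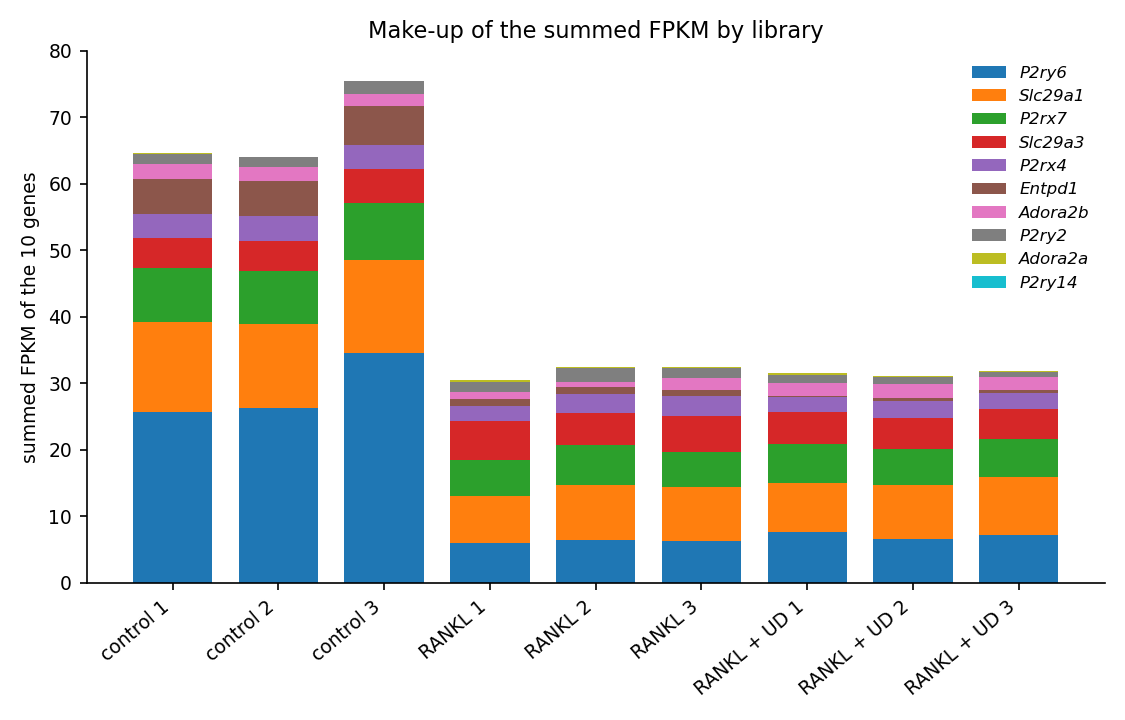
Summed FPKM of the 10 genes in each of the 9 libraries, as stacked bars from 0 with 1 colour per gene. The control bars reach 64.1 to 75.5 and the bars of both RANKL groups 30.5 to 32.5, and the P2ry6 segment shrinks most in height.

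The wider purinergic machinery was described with 9 lists holding 71 genes, of which 31 were tested, 23 of them outside the 10. With RANKL 5 of the 31 were higher and 17 lower (edgeR, adjusted p under 0.05), beside 27.3% higher and 30.2% lower over all tested genes, and their median log2 change was -0.38 beside -0.03 for all tested genes. Leaving out the 10 genes above, 4 of 23 were higher and 11 lower, with a median of -0.21. Of these 23, Il1b, Lrrc8a, P2rx5 and P2ry12 were under 1 FPKM in every library of at least 1 group, so that the expression limit bears on their direction. Without them 3 of 19 were higher and 9 lower. Between RANKL + UD and RANKL 8 of 31 were higher and 8 lower, beside 18.6% and 20.2% over all genes, with medians of -0.04 for the lists and 0.01 for all genes. Between RANKL + UD and control 5 were higher and 17 lower, beside 26.7% and 27.3% over all genes, with a median of -0.28 beside 0.00 over all genes. In both comparisons with control the 17 lower genes include Entpd1, Il1b and P2ry12, which passed the expression limit through control alone. The 5 higher genes include P2rx5, which passed it through the RANKL-treated groups. The limit thus bears on these counts and medians.

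Among the receptors outside the 10, P2rx5, another ATP-gated channel, rose from 0.513 ± 0.081 FPKM in control to 1.55 ± 0.427 in RANKL (SD, n = 3), a log2 change of 1.68 (adjusted p = 6.71e-05, edgeR), and it passed the expression limit through the RANKL-treated groups. It was 1.43 ± 0.453 in RANKL + UD, where the difference from RANKL was -0.21 (adjusted p = 0.564). P2ry12, the ADP receptor, had 74 to 104 counts in control libraries and 0 in all 6 libraries given RANKL, so it was at least 33.1-fold lower in RANKL and at least 30.1-fold lower in RANKL + UD, taking 3 counts in each library as the floor. It passed the expression limit through control alone. It lies with P2ry14 inside the span of Med12l, a gene on the other strand with at most 19 counts in a library. Of 4 concentrative, sodium-driven nucleoside transporters none passed the expression limit. Slc28a2 came nearest, with 1.14, 0.95 and 1.22 FPKM in control, 0.21 to 0.33 in RANKL and 0.10 to 0.20 in RANKL + UD. It was named here after its values were seen and was not tested. The CD73 gene Nt5e was under 0.1 FPKM in all but 1 library and reached 0.1 there, and Entpd2, Enpp3, Cd38, Acpp, Entpd8 and Entpd4 were listed at 0.

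Of the 5 tested genes in the list of ectonucleotidases and related surface enzymes, Entpd1, Entpd5 and Bst1 fell with RANKL and Entpd7 rose, in a comparison that called 57.6% of all tested genes. The list takes in the Entpd genes by name, so a place in it does not mean that the product acts at the cell surface. Bst1 (CD157), a surface enzyme that makes and cleaves cyclic ADP-ribose, held 24.0 ± 0.291 FPKM in control, 11.5 ± 0.323 in RANKL and 8.19 ± 0.211 in RANKL + UD, with log2 changes of -0.98 (adjusted p = 2.39e-11, edgeR) and -0.57 (adjusted p = 1.00e-06) for the first and second step. With UD, Entpd1, Bst1 and Entpd7 were lower than in RANKL and Entpd5 and Entpd6 higher, where 38.8% of all tested genes were called. Entpd5, Entpd6 and Entpd7 were named here after their values were seen, and the rise of Entpd6 was lost without RANKL replicate 3 (adjusted p = 0.0759) or RANKL + UD replicate 3 (0.0643).

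Of the 6 tested inflammasome genes that act after P2X7, 5 were lower in RANKL and none higher, beside 30.2% lower over all tested genes. The median log2 change of the 6 was -1.10 beside -0.03 over all genes. Il1b is among the 5 and passed the expression limit through control alone, so the limit bears on this count and median. The others were Casp1, Il18, Nlrp3 and Nek7 (-1.38, -1.58, -0.82 and -0.42), and Gsdmd was not called (0.11). Nek7 and Gsdmd were named here after their values were seen. Pycard, also on this list, did not pass the expression limit, with at most 0.15 FPKM in any library. It was named here after its values were seen. Whether these cells form a working inflammasome was not measured. Casp1, the protease that cleaves pro-IL-1β and pro-IL-18, held 41.8 ± 0.123 FPKM in control, 15.1 ± 1.47 in RANKL and 19.3 ± 1.21 in RANKL + UD. The corresponding values of Il18 were 26.0 ± 2.34, 8.21 ± 1.43 and 12.7 ± 1.61, and those of Nlrp3, the sensor, 26.1 ± 1.72, 13.9 ± 0.399 and 12.0 ± 1.09. Between RANKL + UD and RANKL, Casp1 rose by 0.27 and Il18 by 0.55 on the log2 scale (adjusted p = 0.0038 and 0.00296, edgeR), and Nlrp3 changed by -0.30 (adjusted p = 0.00182). The call for Nlrp3 was lost in both limma fits on log2 FPKM (adjusted p = 0.0606 and 0.0657). Il1b held 1.35 ± 0.210 FPKM in control, 0.243 ± 0.074 in RANKL and 0.230 ± 0.089 in RANKL + UD. Its log2 change was -2.38 for RANKL against control (adjusted p = 2.43e-05, edgeR). It entered the test through control alone, so this fall was in part set by the expression limit.

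Of 6 tested nucleoside enzymes that act inside the cell, 4 rose from RANKL to RANKL + UD and none fell, beside 18.6% of all tested genes called higher, with a median log2 change of 0.37 beside 0.01 over all genes. These were Uck1 and Uck2, the kinases that phosphorylate uridine and cytidine, Adk, adenosine kinase, and Pnp, which splits purine nucleosides. They were named after their values were seen. Their log2 changes were 0.40, 0.36, 0.25 and 0.38 (adjusted p = 0.0101, 2.76e-06, 0.00197 and 0.00537, edgeR). The call for Uck1 was lost without RANKL replicate 1 (adjusted p = 0.0578) or RANKL + UD replicate 2 (0.0841). Their courses differed in the first step. For RANKL against control Pnp fell (-0.75, adjusted p = 1.6e-06, edgeR) and Adk rose (0.23, adjusted p = 0.0028). Uck1 and Uck2 were not called there (adjusted p = 0.383 and 0.503). In RANKL + UD Pnp was still below control (-0.37, adjusted p = 0.00303).

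**Figure D4:**
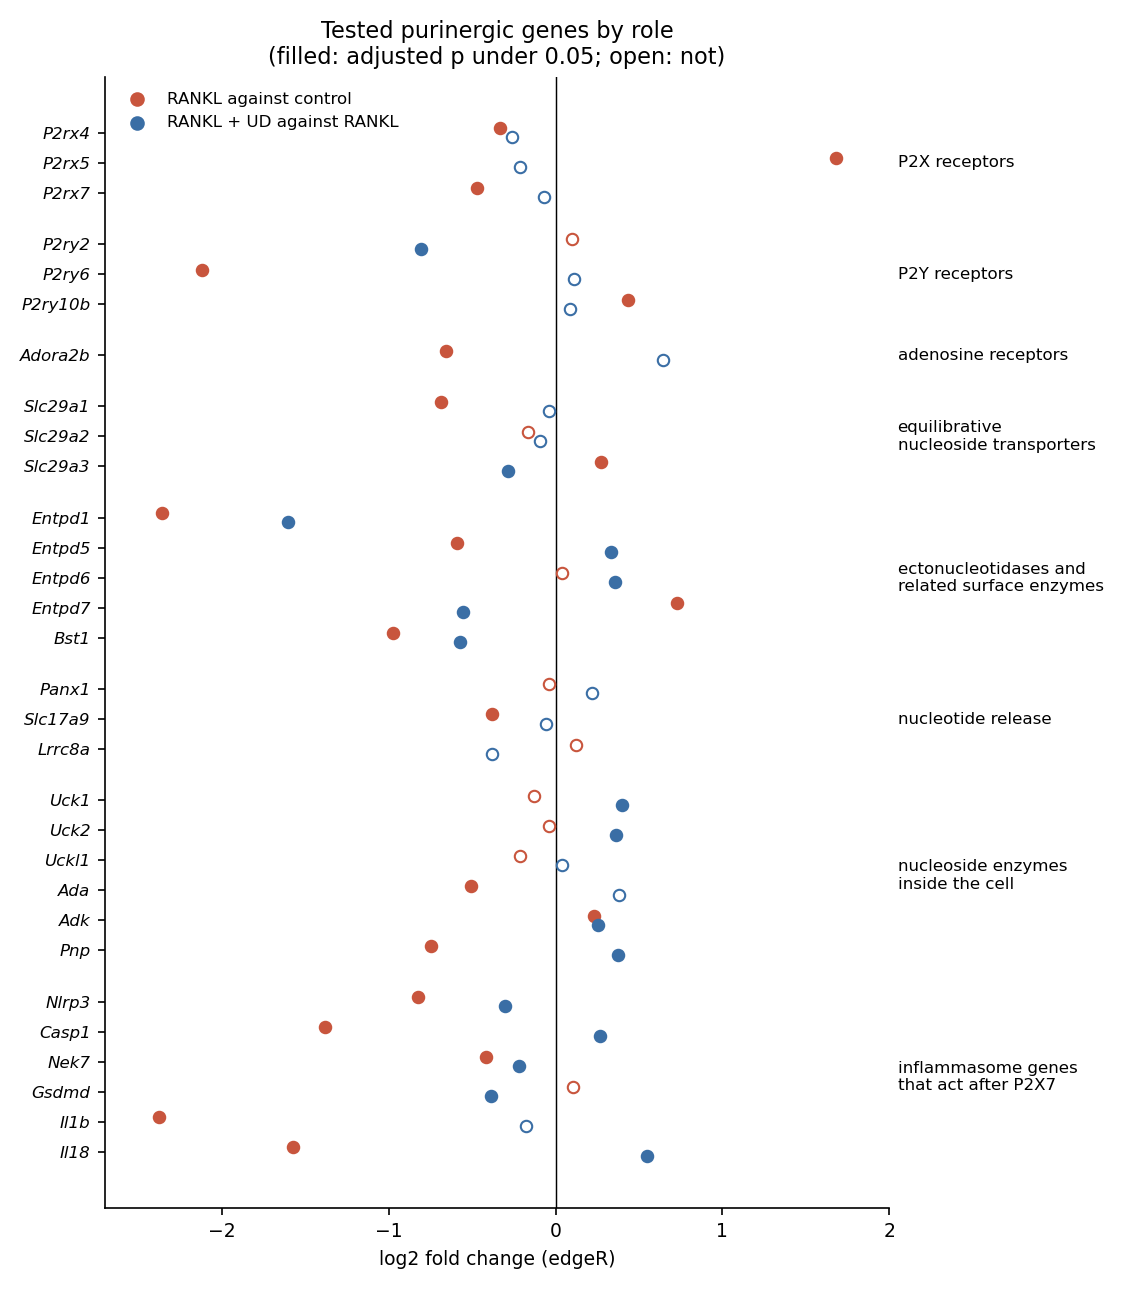
Log2 fold change of the tested purinergic genes grouped by role, for RANKL against control and RANKL + UD against RANKL; filled points have an adjusted p under 0.05 (edgeR) and open points do not. P2ry12, at 0 counts in both RANKL groups, is left out because its fitted change is set by the prior count. The inflammasome genes lie mostly below 0 with RANKL, and the nucleoside enzymes lie at or above 0 with UD.

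Among the 11995 tested genes, the gene closest to each of the 8 in its course over the 9 libraries was found by the root mean square difference of centred log2 CPM. It was B4galt5 for P2rx4 (0.066), Haus2 for P2rx7 (0.054), Mfsd3 for P2ry2 (0.137) and Sema4a for P2ry6 (0.105). For Adora2b it was Gm43859 (0.151), for Slc29a1 Elmo2 (0.069), for Slc29a3 Dctn2 (0.061) and for Entpd1 Fcgr3 (0.246). The second closest were Selenow (0.075), R3hcc1l (0.054), Bbc3 (0.149), Adgre5 (0.113), Gm13237 (0.183), Inpp4a (0.071), Ppm1a (0.062) and Tspan13 (0.301), in the order P2rx4, P2rx7, P2ry2, P2ry6, Adora2b, Slc29a1, Slc29a3 and Entpd1. The distance for Entpd1 was the widest of the 8, and all these values describe likeness over the same 9 libraries.

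**Figure D5:**
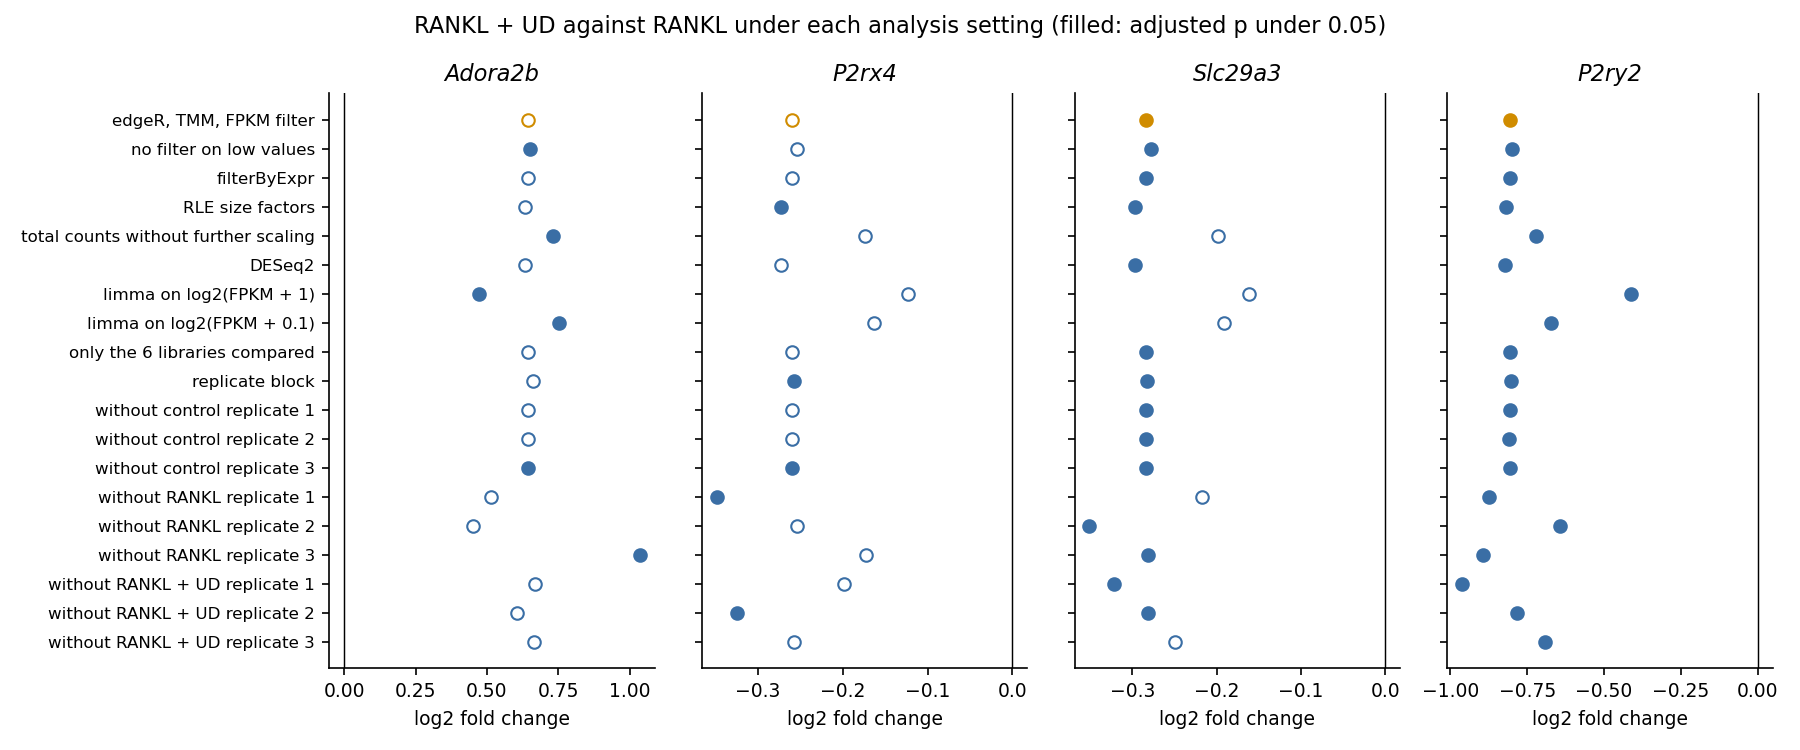
Log2 fold change of Adora2b, P2rx4, Slc29a3 and P2ry2 for RANKL + UD against RANKL under the reported setting (orange, top row) and each of 18 alternatives (blue), 1 panel per gene with its own axis; filled points have an adjusted p under 0.05 and open points do not. All points of a panel lie on the same side of 0, P2ry2 is filled throughout, and the other 3 genes pass or miss the threshold depending on the setting.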

How the data were processed

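Poly(A) RNA of RAW264.7 cells was sequenced in 9 libraries, 3 per group, grouped by their labels. Columns named Model were taken as the RANKL group, since the paper uses both words for it. The authors deposited raw counts per gene and FPKM values, and the FPKM values of all genes could be recomputed from count, exonic length and library total. The submitters' processing notes name mm10, and no aligner or counting tool is given in the sources used here. A chi-square test of counts found every one of 9 pairs of libraries of a group to differ beyond sampling noise, at 2.98 to 9.54 per degree of freedom.

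Counts were tested with edgeR 4.0.16 in R 4.3.3 (glmQLFit and glmQLFTest), TMM scaling, 1 fit over 9 libraries and Benjamini-Hochberg adjustment over 11995 genes that reached 1 FPKM in 3 libraries or more. A gene with at most 3 counts in every library of a group was at the floor. Intervals are at 95%, and those of summed counts, like the floor, cover counting error only. Alternatives were DESeq2 1.42.0, size factors by RLE, total counts, edgeR's filterByExpr and no filter, limma 3.58.1 on log2(FPKM + 1) and log2(FPKM + 0.1), the 6 libraries compared alone, the replicate number as a block, and leaving out each library. DESeq2 is also the tool the paper names. The 10 genes, the lists and the motifs were chosen with earlier results of these data known. Of the wider lists, genes are named with values where the adjusted p was under 0.05 and the log2 fold change at least 1 in size in a comparison; other names are said to be chosen after the values were seen. Motifs were searched in RefSeq windows of GRCm38.p6. Tables were prepared with pandas 2.3.3 and scipy 1.17.1.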

Additional observations from a re-analysis of the deposited data

How the results depend on the processing

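Over 18 alternatives and 3 comparisons, 404 of 432 log2 fold changes of the 8 genes kept their side of the threshold, 17 lost it and 11 passed it. Of the 404, 387 also kept their sign and 17 changed it, all of them near 0 and called in neither fit: P2ry2 in RANKL against control, P2rx7 and Slc29a1 in RANKL + UD against RANKL, and Adora2b and Slc29a3 in RANKL + UD against control. The calls for P2rx7, P2ry2, P2ry6, Slc29a1 and Entpd1 were the same under all 18. The changes fell on P2rx4, Adora2b and Slc29a3, and the cause was not tested. For Slc29a3, limma on log2(FPKM + 1) and on log2(FPKM + 0.1) gave adjusted p-values of 0.104 and 0.106 for RANKL against control and of 0.106 and 0.108 for RANKL + UD against RANKL. For Adora2b, RANKL + UD against RANKL passed the threshold with no filter on low values (0.0451), with total counts (0.0273) and in both limma fits (0.0318 and 0.04), and RANKL against control did not in the fit of the 6 libraries compared (0.0629). For P2rx4, RANKL + UD against RANKL passed with RLE size factors (0.0446).

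For RANKL against control, genes of the 8 or 10 that were higher by adjusted p numbered 1, and 2 with no filter (Adora2a added) against 0 with total counts and in both limma fits; by fold and p there was 1 with no filter, and 2259 genes in all were higher in place of 1330. For RANKL + UD against RANKL the count of higher genes among them was 1 (Adora2b) in place of 0 with no filter, with total counts and in both limma fits. By fold and p limma on log2(FPKM + 1) called 0 higher and 0 lower of them, and 341 genes lower in all against 719. By adjusted p 1539 genes were lower in that fit and 1488 with a pseudocount of 0.1, against 2418. Without a filter 1030 genes were higher and 1156 lower by fold and p. For RANKL + UD against control no filter gave 1 higher of them by adjusted p and 1 by fold and p (Adora2a), with 2059 genes higher and 2390 lower in all, and limma on log2(FPKM + 1) gave 3 lower of them in place of 5. Leaving out single libraries gave 0 to 1 higher of the 8 for RANKL against control by adjusted p, and 0 to 1 higher for RANKL + UD against RANKL by adjusted p and by fold and p.

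The labels do not say that a replicate number marks a shared culture, so the numbers were not taken to pair libraries. Deviations from the group means were correlated between libraries of different groups. The values were -0.019 to 0.098 for the same number and -0.102 to 0.046 for different numbers. Both highest values, 0.098 and 0.086, were between libraries numbered 1, and what this reflects was not tested. With the number as a block, P2rx4 in RANKL + UD against RANKL passed the threshold (-0.26, adjusted p = 0.0468), 4 of the 8 genes were lower there in place of 3, and no other call of the 8 changed. Genes under 1 FPKM, P2ry14 and Adora2a here, rest on few counts, and a difference in them may be missed at this depth.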
